A study of Mus musculus with 6 samples.

Results

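miR-155 and miR-147 are microRNAs (miRNAs) that immune cells make when Toll-like receptors sense bacterial products such as lipopolysaccharide (LPS). They were followed here in the pancreas of mice with caerulein and LPS pancreatitis. Members were chosen by name: mmu-miR-155-5p, mmu-miR-155-3p, mmu-miR-147-3p and mmu-miR-147-5p. The deposited table holds 3 of these 4 names among its 1414 miRNA rows, and miR-147-5p was not analysed here. Of the 3 rows, miR-155-5p and miR-147-3p were among the 499 rows with enough counts to be tested, and miR-155-3p was not.

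The study took pancreas from wild-type C57BL/6 mice of 22 to 25 g, in a model group and a control group of 3 small RNA libraries each. All mice had 7 intraperitoneal injections at intervals of 1 hour, and tissue was collected 24 hours after the first. The model group received caerulein, a peptide that mimics cholecystokinin, at 50 mg/kg as the labels state it, and LPS with the last injection. The control group received saline. The libraries are called by the numbers in their titles: control 43, 44 and 45, and model 56, 57 and 59. No group had caerulein or LPS alone, so the effects of these agents cannot be told apart. Whether the libraries of a group are different mice is not stated, and p-values therefore describe library spread, part of which may be technical. The age of the mice was not given in the sources used here.

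A miRNA is cut from a hairpin precursor, and usually 1 arm is loaded into Argonaute as the guide while the other is degraded. The guide pairs with messenger RNAs mainly through its seed, bases 2 to 8 from the 5′ end, and lowers their translation and stability. miR-155 is processed from the noncoding transcript Mir155hg (also called Bic), which rises in activated macrophages, dendritic cells, B cells and T cells. It represses negative regulators of inflammatory signalling such as Socs1 and Inpp5d (SHIP1). miR-147 is induced in macrophages by several Toll-like receptors and dampens their cytokine response.

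The mature sequences from the deposited table are shown because the seed sets which targets an arm can pair with, and capitals mark that seed. The last sequence is miR-210-3p, the single other row that shared bases 2 to 7 with a member.
miR-155-5p: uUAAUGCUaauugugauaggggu
miR-155-3p: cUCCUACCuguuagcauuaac
miR-147-3p: gUGUGCGGaaaugcuucugcua
miR-210-3p: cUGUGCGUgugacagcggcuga
The 3 members carried different seeds, and no other row of the table shared bases 2 to 8 with any of them. The closest other sequence differed from miR-155-5p at 8 bases, from miR-155-3p at 8 and from miR-147-3p at 7, allowing a shift of 1 base. No row was near-identical to a member.

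The miR-155 hairpin is shown because its arms gave very unequal counts, and capitals mark both mature arms.
miR-155 hairpin: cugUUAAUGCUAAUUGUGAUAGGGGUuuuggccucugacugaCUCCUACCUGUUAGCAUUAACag
In this hairpin of 65 bases the 5p arm took positions 4 to 26 and the 3p arm positions 43 to 63. The sequences of both arms equalled those of RefSeq. In GRCm38, Mir155 lies on chromosome 16 from 84714140 to 84714204, plus strand, within exon 2 of Mir155hg, a lincRNA in GENCODE M21. Mir147 lies on chromosome 2 from 122640803 to 122640881, plus strand. There it falls in the last exon of the protein-coding AA467197 (Nmes1), past the stop codon and so in the 3′ UTR of 2 transcripts. miR-147-3p took positions 48 to 69 of its hairpin of 79 bases.

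Total counts per library ran from 1943693 to 3006220, so 3 counts, the limit that a count of 0 allows, stood for 0.998 to 1.54 CPM, each library's counts brought to the same total. Levels below are in CPM after TMM scaling, which lines up the bulk of miRNAs between libraries. The libraries carried the miRNAs that define pancreas. The acinar miR-216a-5p, miR-216b-5p and miR-217-5p summed to 31688 to 47906 CPM in control and 26983 to 29612 CPM in model libraries. The islet miR-375-3p and miR-7a-5p summed to 58828 to 80826 and 38838 to 52091 CPM, and the endothelial miR-126a-3p was at 34716 to 43603 and 26567 to 33034 CPM. These 3 lay lower in the model group without overlap on the TMM scale. The share of all rows tested that did so in this direction was not counted. Within the acinar sum, miR-217-5p overlapped between groups (909 to 4138 CPM in control, 1218 to 1947 in model libraries). In the islet sum miR-7a-5p did so (8104 to 11385 and 7987 to 12067 CPM). The erythroid miR-451a (10139 to 13155 and 6895 to 11522 CPM) also overlapped. So did the summed smooth muscle miR-143-3p and miR-145a-5p (16447 to 26177 and 15847 to 19380 CPM). In this sum miR-143-3p overlapped (14457 to 24924 and 13741 to 16806 CPM). miR-145a-5p lay higher in the model group without overlap (1253 to 1990 and 2106 to 2574 CPM), as did 14.4% of rows tested. In the RPM that the authors deposited, the acinar sum lay higher in the model group (2387 to 3099 in control, 3285 to 4051 in model). So did miR-126a-3p (2443 to 3285 and 3660 to 4744) and the smooth muscle sum (1012 to 1972 and 2150 to 2740). The islet sum (4975 to 5479 and 5350.5 to 7045) and miR-451a (624 to 1225 and 1019 to 1278) overlapped. The part of these cell types in the levels of miR-155-5p and miR-147-3p was not tested. In bulk tissue, more cells of a type and more of a miRNA per cell cannot be told apart.

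The guide arm of miR-155, mmu-miR-155-5p, was higher in every model library than in every control library, but the difference missed the threshold over all rows. Its level was 173 CPM in control 43, 82.3 in control 44 and 107 in control 45. It was 377 CPM in model 56, 1542 in model 57 and 801 in model 59. The lowest model library stood 2.19 times above the highest control, and within the model group the highest library was 4.09 times the lowest. The means were 121 ± 46.6 CPM in control and 907 ± 589 CPM in the model group (SD, n = 3 each), a log2 fold change of 2.91 (SE 0.55). The unadjusted p was 0.00101 and the edgeR adjusted p was 0.0564. Of the rows tested, 3 had a larger log2 fold change.

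**Figure D1:**
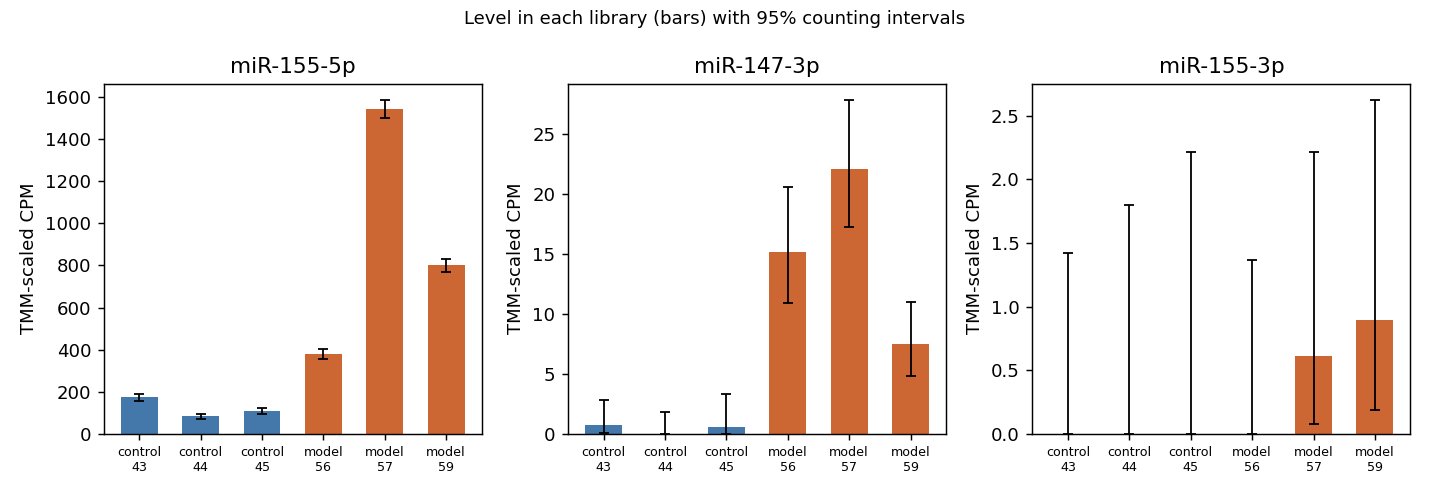
TMM-scaled CPM (vertical axis) of miR-155-5p, miR-147-3p and miR-155-3p in control (blue) and model (orange) libraries, each panel with its own scale; error bars are 95% exact binomial intervals of counting error. All 3 model bars exceed all 3 control bars for miR-155-5p and miR-147-3p, and the intervals of miR-155-3p overlap in all libraries.

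In raw reads these levels were 448, 169 and 179 counts of miR-155-5p in control 43, 44 and 45, and 1018, 5026 and 2679 in model 56, 57 and 59. The RPM values that the authors deposited, which use larger library totals, were 16.1, 6.20 and 6.61 in control and 41.8, 228 and 110 in model libraries. Every scale placed model 57 highest and control 44 lowest. Counted from the most abundant, miR-155-5p held rank 168 to 232 in the control libraries and 142, 80 and 109 in model 56, 57 and 59. In control it lay between miR-28a-3p at 124 ± 15.9 CPM and miR-106b-5p at 115 ± 24.3 (SD, n = 3). These neighbours were picked for their like level, and their order was within their spread. Ligation bias is not corrected for, so the order of levels between miRNAs is approximate.

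The model libraries differed more in miR-155-5p than in most tested miRNAs at 100 CPM or more, a set not matched to its level. Its coefficient of variation was 65.0% in the model group, against a median of 15.4% over the 212 tested rows with a mean of at least 100 CPM. Of those rows, 9 had a larger one. Counting error was small beside this spread, with 95% intervals of 384 to 435, 1626 to 1719 and 894 to 964 CPM before TMM scaling in model 56, 57 and 59.

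The side of the threshold on which miR-155-5p fell varied. It passed in 8 of 16 alternatives, with adjusted p from 2.2e-06 (DESeq2) to 0.162 (edgeR without model 59). Its log2 fold change stayed positive in all 16 and ran from 2.31 without model 57 to 3.72 with the library totals of the authors. Without model 57, its highest library, the edgeR adjusted p was 0.117, and without model 56, its lowest model library, 0.0339.

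**Figure D2:**
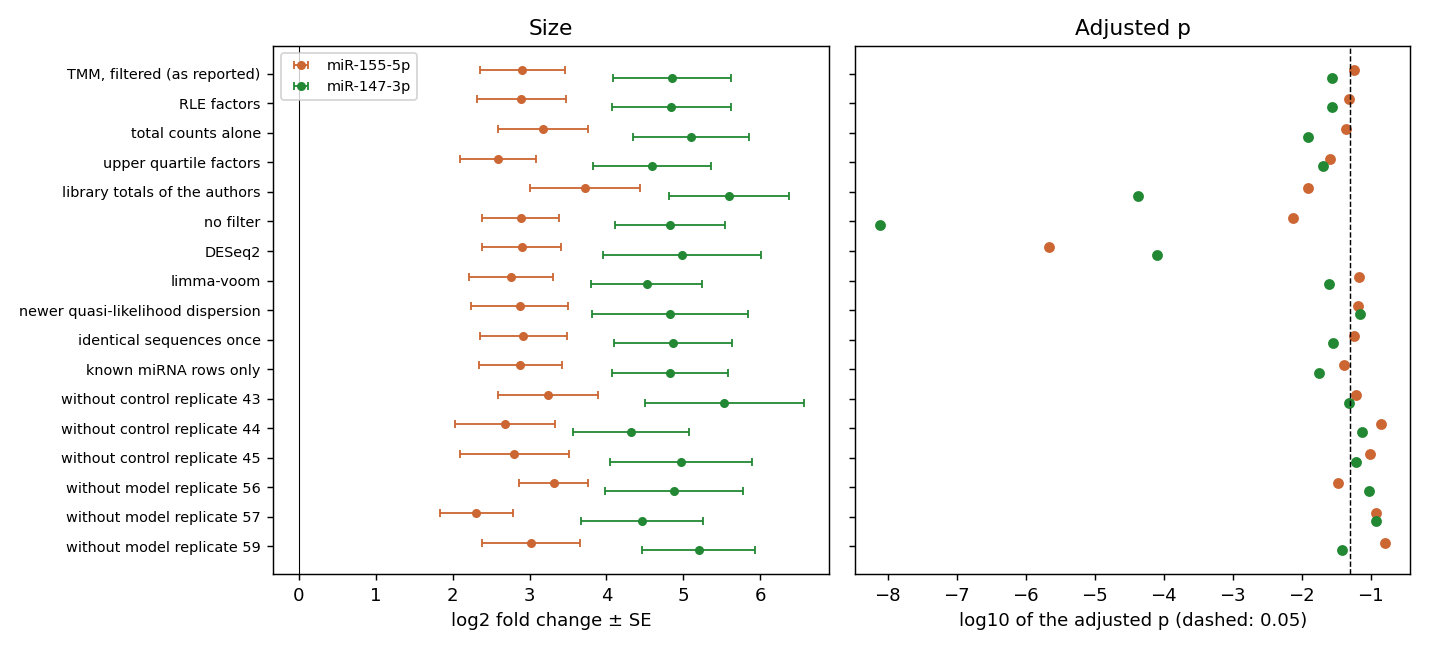
Log2 fold change with SE (left) and log10 adjusted p (right) of miR-155-5p (orange) and miR-147-3p (green) under the reported setting and 16 alternatives; the dashed line is an adjusted p of 0.05. All fold changes are positive, while the adjusted p of each miRNA lies on both sides of the line. The fitted size of miR-147-3p rests on at most 3 control reads.

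The passenger arm, mmu-miR-155-3p, was barely detected, and only in model libraries. It had 2 counts in model 57 and 3 in model 59, and 0 in model 56 and in the 3 controls. A count of 0 allows up to 1.11 CPM in model 56 and 1.16 to 1.80 CPM in the controls, above the 0.613 and 0.897 CPM of model 57 and 59. A difference was therefore not detectable at this depth, and no fold is given. The row fell below the count filter and has no adjusted p.

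The 3p arm made up 0.0573% of the 8728 reads of the miR-155 hairpin in the model group (95% Clopper-Pearson interval 0.0186% to 0.134%). In control it was 0 of 796 reads, which allows a share of up to 0.377%. Both libraries with 3p reads were also the pair with the most 5p reads. Over all libraries the minor arm took 0.0525% of the hairpin's reads. Among 173 hairpins with both arms listed and at least 1000 counts, the median minor arm share was 0.931%, and 22 hairpins had a smaller share than miR-155. With a mean of 0.833 counts for the 3p arm, a change in the arm ratio between groups could not be fitted.

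The listed arm of miR-147, mmu-miR-147-3p, went from near absence to a low but clear level. It had 2, 0 and 1 counts in control 43, 44 and 45, and 41, 72 and 25 counts in model 56, 57 and 59. On the scaled level this was 0.770 CPM, none detected (at most 1.46 CPM) and 0.600 CPM in control, and 15.2, 22.1 and 7.47 CPM in the model libraries. All 3 model libraries lay above all 3 controls, with model 57 highest and model 59 lowest. The lowest model library stood 5.12 times above the 1.46 CPM that the 0 of control 44 allows.

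The ratio of the summed rates, 138 counts against 3, was 31.2, and counting error alone gave an exact 95% interval from 10.5 to 153 (Poisson). The edgeR adjusted p was 0.0273 (unadjusted p = 0.000275). The ratio rests on very few control reads: it was 55.2 (9.74 to 2196) without control 43 and 21.1 (7.06 to 103) without control 44. miR-147-3p held rank 694 to 915 of the table in control libraries and 328 to 422 in model libraries.

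Of the 2 members tested, miR-147-3p was called higher and miR-155-5p was not, where 1.00% of all rows tested were called higher and 0.200% lower. Both had groups that did not overlap, which held for 14.4% of rows tested in this direction. miR-147-3p reached the count filter only through its model libraries, so a row like it had to differ to be tested. The call of miR-147-3p was kept in 11 of 16 alternatives, with adjusted p from 7.7e-09 without a count filter to 0.117. It was lost with the newer quasi-likelihood dispersion (0.0697) and without control 44 (0.0757), control 45 (0.0605), model 56 (0.0944) or model 57 (0.117).

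**Figure D3:**
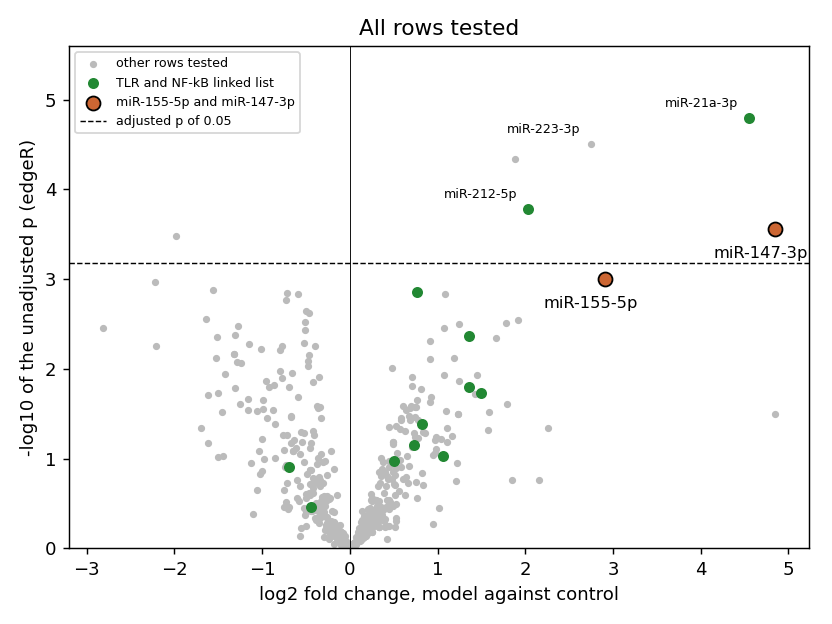
Log2 fold change (horizontal) against -log10 of the unadjusted edgeR p (vertical) for the 499 rows tested, with miR-155-5p and miR-147-3p in orange and the Toll-like receptor and NF-kB linked list in green. miR-147-3p has the largest fitted log2 fold change and lies above the dashed line of adjusted p 0.05; miR-155-5p lies just below it.

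miR-155-5p and miR-147-3p did not keep the same proportion in the model libraries. There were 24.8 reads of miR-155-5p per read of miR-147-3p in model 56, 69.8 in model 57 and 107 in model 59, against 224 in control 43 and 179 in control 45. The control ratios rest on 2 and 1 reads of miR-147-3p, and control 44, with 169 reads of miR-155-5p and 0 of miR-147-3p, gives none. Model 56, lowest in miR-155-5p, was thus the model library richest in miR-147-3p relative to it. The log2 ratio of miR-147-3p to miR-155-5p, with 1 count added to each, was -7.04 ± 0.49 in control and -5.80 ± 1.08 in the model group (SD, n = 3 each). The groups overlapped, with model 59 at -6.69 and control 45 at -6.49. A change of different size was not shown (difference 1.24, two-sided exact permutation p = 0.2, where 0.1 is the smallest that 3 against 3 can give). With 0.5 counts added instead, the difference was 1.78 and p was 0.1 by the same test. The overlap therefore depended on the count added.

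Other miRNAs tied to Toll-like receptor and NF-kB signalling mostly had positive fold changes, and 2 passed the test. The list held both arms of miR-146a, miR-146b, miR-21a, miR-132, miR-212, miR-9 and miR-187, 14 rows of which 12 were tested. Of these 2 were called higher and 0 lower, where 1.00% of all rows tested were called higher and 0.200% lower. The log2 fold change was above 0 for 10 of the 12 and for 251 of all 499 rows. Its median was 0.95 against 0.0050 over all 499 rows. Without control 44, control 45, model 56, model 57 or model 59, 1 of the list was called higher.

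Both calls were 1 arm of a hairpin. The star strand miR-21a-3p rose from 49.7, 19.5 and 24.6 CPM in control 43, 44 and 45 to 1037, 559 and 613 CPM in model 56, 57 and 59. Its edgeR adjusted p was 0.0077 and its log2 fold change 4.55 (SE 0.47). miR-212-5p, from the CREB-responsive miR-132 and miR-212 cluster, rose from 6.00 to 9.24 CPM in control to 29.4 to 31.7 CPM in the model group. Its edgeR adjusted p was 0.0207 and its log2 fold change 2.03 (SE 0.30). This was the call lost without control 44 (adjusted p = 0.0757), control 45 (0.0605), model 56 (0.0678), model 57 (0.101) or model 59 (0.0975), and over all 16 alternatives the adjusted p ran from 2.8e-05 to 0.101.

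The order of the model libraries differed within the list. miR-21a-3p was highest in model 56, where miR-155-5p was lowest. In contrast, miR-146b-5p, a feedback inhibitor of receptor signalling through Traf6 and Irak1, was at 403, 963 and 726 CPM in model 56, 57 and 59, in the order of miR-155-5p. Its control levels were 265, 243 and 309 CPM, and the edgeR adjusted p was 0.0774 at a log2 fold change of 1.36 (SE 0.34). Its relative miR-146a-5p was at 2196, 5417 and 3369 CPM in the model and 1872 to 2848 CPM in the control libraries, so that the groups overlapped (log2 fold change 0.73, edgeR adjusted p = 0.246).

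The rest of the list had log2 fold changes of 1.50 for miR-212-3p, 1.36 for miR-132-5p, 1.07 for miR-132-3p, 0.83 for miR-9-5p, 0.77 for miR-21a-5p and 0.50 for miR-187-3p, none past the threshold. They were -0.44 for miR-9-3p and -0.70 for miR-187-5p. With the library totals of the authors, which shift the median of all rows by 0.79, the last pair turned positive (0.28 and 0.091). The 3p arms of miR-146a and miR-146b had too few counts to be tested.

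**Figure D4:**
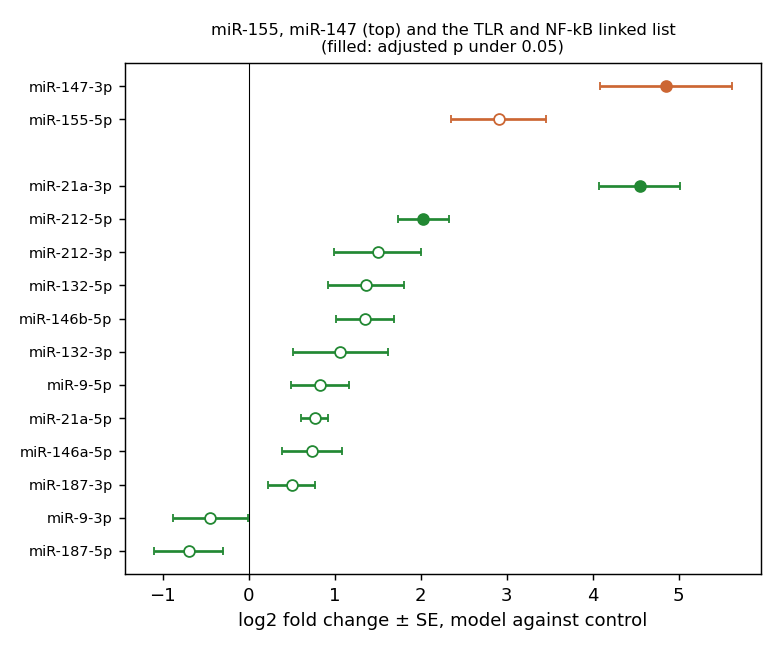
Log2 fold change with SE (horizontal) of miR-147-3p and miR-155-5p (orange) and of the 12 tested rows of the Toll-like receptor and NF-kB linked list (green), with filled symbols for an adjusted p under 0.05. In the list miR-21a-3p (4.55) and miR-212-5p (2.03) are filled, and 2 arms lie below 0.

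Some leukocyte markers separated the groups in the same direction and others did not. The neutrophil and myeloid miR-223-3p and miR-223-5p summed to 252 to 483 CPM in control and 2151 to 2252 in model libraries. The pan-leukocyte miR-142a-3p and miR-142a-5p summed to 311 to 987 and 1120 to 1951 CPM. Of this pair only miR-142a-3p separated the groups (154 to 522 and 738 to 1178 CPM). miR-142a-5p overlapped (157 to 465 and 382 to 773 CPM). The macrophage miR-511-3p and miR-511-5p overlapped between groups, at 9.59 to 25.4 and 14.9 to 29.1 CPM, as did the lymphoid miR-150-5p and miR-342-3p, at 3981 to 5586 and 1599 to 6611 CPM. The lymphoid pair differed in sign, with log2 fold changes of -0.35 for miR-150-5p and 0.53 for miR-342-3p. No leukocyte marker was at 0 in all libraries. Of 16 markers tested over all cell types, 1 was called, miR-223-3p (log2 fold change 2.75, edgeR adjusted p = 0.0077). Over all rows tested, 1.00% were called higher and 0.200% lower, and 14.4% lay higher in the model group without overlap. The part of leukocyte numbers in the levels of miR-155-5p and miR-147-3p was not tested.

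Ratios of counts within a library do not depend on scaling, and miR-155-5p and miR-147-3p were set against 4 leukocyte miRNAs in this way, a step chosen after their values had been seen. Relative to the lymphocyte miR-150-5p, miR-155-5p was nearly constant within the model group. It had 26.4, 26.4 and 25.9 counts per 100 counts of miR-150-5p in model 56, 57 and 59, against 3.30, 1.93 and 2.89 in control 43, 44 and 45. Per 100 counts of miR-342-3p, the other lymphoid marker, it had 222, 200 and 221 in the model and 49.1, 28.8 and 40.6 in the control libraries. The groups did not overlap for either ratio. The 4.09-fold range of miR-155-5p among model libraries was thus shared with both lymphoid markers. Their order of model libraries was not particular to them: miR-146a-5p, miR-146b-5p and miR-223-5p had it as well. In control the order differed, with miR-150-5p at 5235, 4259 and 3717 CPM in control 43, 44 and 45. How many rows shared the order of miR-155-5p was not counted.

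Relative to myeloid miR-223-3p the groups overlapped. miR-155-5p had 36.7, 33.3 and 43.6 counts per 100 of miR-223-3p in control 43, 44 and 45 and 16.9, 72.3 and 37.8 in model 56, 57 and 59, and without model 57 the difference turned from 4.47 to -10.5. Per 100 counts of miR-142a-3p the ratios were 39.4 ± 12.0 in control and 94.6 ± 44.9 in the model group (SD, n = 3 each), with overlap.

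Against the leukocyte miRNAs, the counts of miR-147-3p were compared with the limit that the 0 of control 44 allows. It had 0.164, 0 and 0.243 counts per 100 of miR-223-3p in control 43, 44 and 45 and 0.681, 1.04 and 0.352 in model 56, 57 and 59. The 0 of control 44 allows up to 0.592, above model 59, so a separation of the groups is not shown for this ratio. Per 100 counts of miR-142a-3p it had 0.148, 0 (at most 0.946) and 0.179 in control and 1.79, 1.87 and 1.01 in the model libraries. Per 100 of miR-150-5p the model libraries had 1.06, 0.378 and 0.242, with a range unlike the even ratio of miR-155-5p. Of the 8 ratios, 6 had groups without overlap where a count of 0 is taken as 0, and 5 where it is taken as its limit. The share of all rows that separate when set against the same references was not counted. With 0 taken as 0, each of the 6 had the lowest p of the design (two-sided exact permutation p = 0.1, which 3 against 3 cannot go below, and 0.133 adjusted over 8 ratios). The other 2, of miR-155-5p to miR-223-3p and to miR-142a-3p, had adjusted p = 0.8 and 0.229 by the same permutation test. Both members alone already separated the groups, so the separated ratios repeat part of that difference.

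**Figure D5:**
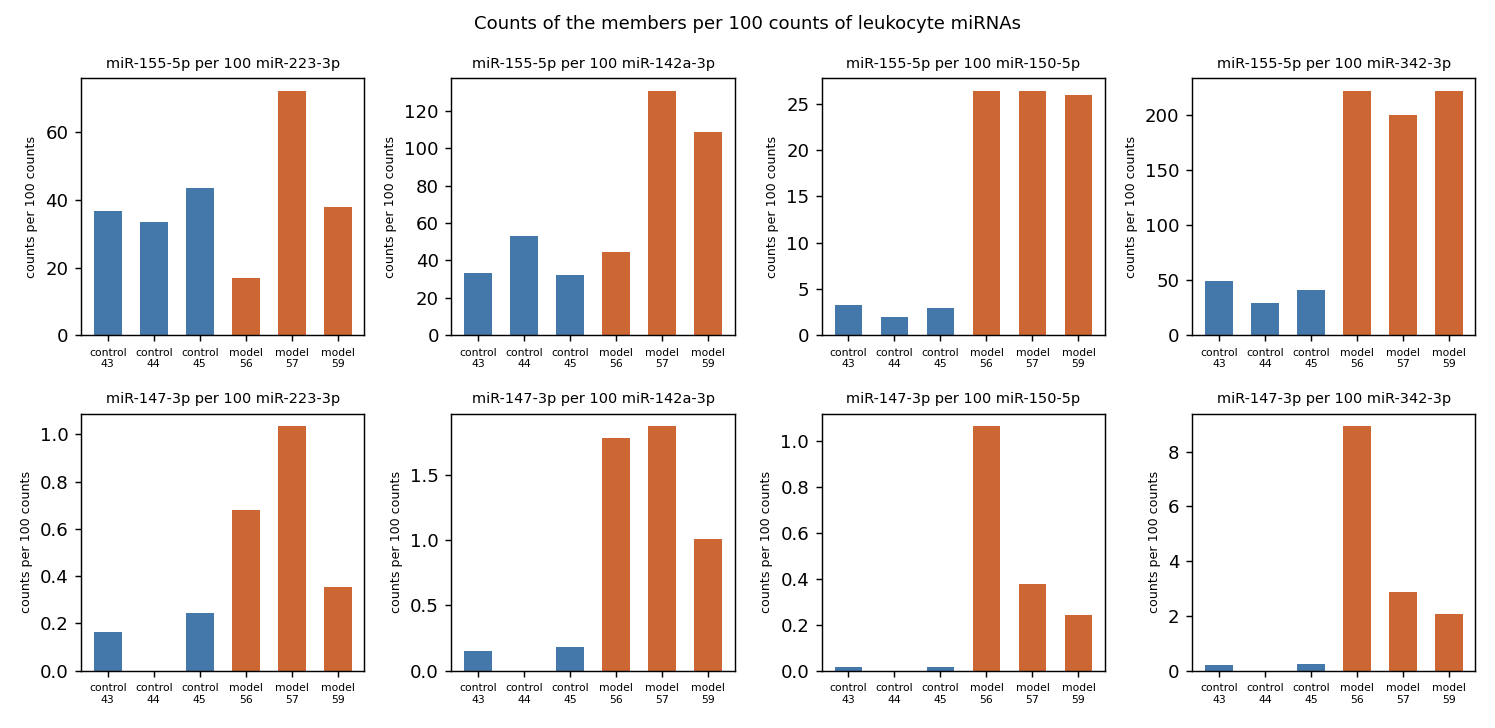
Counts of miR-155-5p (top) and miR-147-3p (bottom) per 100 counts of miR-223-3p, miR-142a-3p, miR-150-5p and miR-342-3p in control (blue) and model (orange) libraries. The model bars are level for miR-155-5p per 100 miR-150-5p (25.9 to 26.4) and uneven in the other panels except miR-342-3p.

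The rows most like each member over the 6 libraries were found by Pearson's r of log2(CPM + 1) among tested rows with a mean of at least 10 CPM. All such values share the 2 groups and the libraries and are descriptions. For miR-155-5p they were miR-223-5p (r = 0.982), a row of a predicted miRNA (0.967), miR-146b-5p (0.965), miR-25-3p (0.960) and miR-222-3p (0.956). miR-223-5p, the passenger arm of miR-223, was at 20.4, 37.7 and 29.9 CPM in model 56, 57 and 59, the order of miR-155-5p, and at 5.35 to 12.7 CPM in control. For miR-147-3p the nearest were miR-18a-5p (0.961), miR-21a-3p (0.959), miR-223-3p (0.958), miR-340-5p (0.951) and miR-212-5p (0.948). Between miR-155-5p and miR-147-3p r was 0.918.

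miR-210-3p, the hypoxia-induced miRNA whose seed matches miR-147-3p at bases 2 to 7, was at 8.09, 4.87 and 16.2 CPM in control 43, 44 and 45. In model 56, 57 and 59 it was at 21.9, 19.9 and 35.6 CPM, with an edgeR adjusted p of 0.137 and a log2 fold change of 1.42 (SE 0.48). The groups did not overlap, and the highest was model 59, the lowest in miR-147-3p. In control all libraries had more miR-210-3p than miR-147-3p, and in the model group model 57 had slightly more miR-147-3p.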

How the data were processed

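Small RNA between 18 and 30 nt was gel-selected, ligated to adapters with unique molecular identifiers and amplified, per the labels' protocols. The authors deposited whole-number read counts per mature miRNA arm, per the file headers, and a second set of values that behave as RPM. The deposited count divided by the RPM gave 1 library total per library, read from rows with 100 or more counts. It was 27093090 to 27876715 in control and 22055639 to 24325566 in model libraries. The deposited counts made up 7.17% to 9.43% of this total in control and 10.2% to 13.6% in model libraries. The sources used here say neither what this total holds nor whether identifiers were collapsed. Intervals and floors therefore include counting error alone. Bowtie2 and GRCm38.p6 are named in the submitters' processing notes, without a role. Per the labels, 3 control and 3 model libraries were grouped by title.

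The test was that of edgeR 4.0.16 (R 4.3.3) on the deposited counts: filterByExpr defaults (minimum count 10, minimum total 15), TMM factors, robust dispersions, the two-sided quasi-likelihood test, and Benjamini-Hochberg adjustment over 499 rows with a threshold of 0.05. An SE is the log2 fold change divided by the square root of F. DESeq2 1.42.0, limma 3.58.1 (voom), other scalings, filters and row sets, and leaving out each library were tried. Replicate pairs differed by more than sampling noise.

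Members and lists were chosen with earlier results of these data known. Named rows were the members, the Toll-like receptor and NF-kB linked list, cell type markers, rows sharing a seed, the 5 rows most correlated with each tested member and the neighbours of miR-155-5p in level. Markers of non-leukocyte cells are given as summed or single levels, without their tests. Sequences come from the deposited table and positions from RefSeq and GENCODE M21, both on GRCm38.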

Additional observations from a re-analysis of the deposited data

How the results depend on the processing

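No paired analysis was possible because the replicate numbers of the groups (43, 44 and 45; 56, 57 and 59) are not shared. The log2 fold change of miR-155-5p, 2.91 without a call, passed the threshold with RLE factors (2.90), total counts alone (3.17), upper quartile factors (2.59), the library totals of the authors (3.72), no filter (2.89), DESeq2 (2.90) and known rows only (2.88). Leaving out 1 library gave 2.31 to 3.31 for miR-155-5p and 4.31 to 5.53 for miR-147-3p. With the newer dispersion miR-147-3p was at 4.83, no longer called. The number of rows called higher and lower, 5 and 1 as reported, was 7 and 8 with RLE factors, 17 and 1 with total counts alone, 6 and 39 with upper quartile factors, 124 and 2 with the library totals of the authors, 23 and 35 without a filter, 19 and 19 with DESeq2, 8 and 7 with known rows only, and 4 and 2 with the newer dispersion. It was 3 to 5 higher and 0 to 5 lower without 1 library. Scaling shifted the median of all rows by 0.29 with total counts alone, -0.29 with upper quartile factors and 0.79 with the library totals of the authors.

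In the Toll-like receptor and NF-kB linked list 2 rows were called higher, and 4, 10, 6 and 4 with total counts alone, the library totals of the authors, no filter and DESeq2. Without 1 library 1 to 2 were called. The list's median of 0.95 was 1.25, 0.65 and 1.77 with total counts alone, upper quartile factors and the library totals of the authors, and 0.88 to 1.15 without 1 library. Signs turned with the library totals of the authors for miR-9-3p (0.28), miR-187-5p (0.091) and miR-150-5p (0.48), and with upper quartile factors for miR-511-3p (-0.24) and miR-340-5p (-0.043). Without 1 library they turned for miR-511-3p (-0.30 to 0.33), miR-150-5p (-0.93 to 0.066), miR-342-3p (-0.14 to 0.96) and the difference in counts of miR-155-5p per 100 counts of miR-223-3p (-10.5 to 17.2). The log2 ratio of miR-147-3p to miR-155-5p changed by 0.65 to 1.78 in 7 alternatives, in a design too small to pass the threshold. The cause was not tested for any of these. The alternatives planned for the arm ratio of miR-155 were not run, since no ratio could be fitted. Depth limits miR-155-3p and the control level of miR-147-3p, both at 0 to 3 counts per library.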

Other observations

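miR-155 and the miR-146 pair are induced by the same receptors and are known as opposing regulators of the response, miR-155 as an amplifier and miR-146 as a brake. Their balance within a library was therefore described, a step chosen after the values had been seen. There were 6.06, 4.40 and 5.68 counts of miR-155-5p per 100 counts of miR-146a-5p in control 43, 44 and 45, and 17.2, 28.5 and 23.8 in model 56, 57 and 59. Per 100 counts of miR-146b-5p there were 65.2, 33.8 and 34.7 in control and 93.7, 160.1 and 110.3 in the model libraries. miR-147-3p had 0.0270, 0 (at most 0.0780) and 0.0317 counts per 100 of miR-146a-5p in control 43, 44 and 45, and 0.692, 0.408 and 0.222 in model 56, 57 and 59. None of these ratios overlapped between groups, nor did the ratio of miR-147-3p to miR-146b-5p, also with the 0 of control 44 at its limit (two-sided exact permutation p = 0.1 for each of 4 ratios and after adjustment, the lowest this design allows). Since no ratio overlapped, leaving out 1 library could not turn its direction. How many other rows separate when set against the miR-146 pair was not counted. Both members alone already separated the groups, and miR-147-3p had 0 to 2 counts in control libraries, so these ratios repeat part of that difference. In model libraries the ratio to miR-146a-5p was highest for miR-155-5p in model 57 and for miR-147-3p in model 56.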
